A study of Homo sapiens with 402 samples.

Results

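The genes described here are 6 members of the aryl hydrocarbon receptor pathway: the receptor gene AHR, its partner ARNT, its repressor AHRR, and 3 genes it is known to switch on, CYP1A1, CYP1B1 and TIPARP. They were taken by gene symbol from count files that list 34721 symbols in all, and all 6 had a row and passed the filter on low counts on each of the 5 plates. The cells were MCF10A, a non-tumorigenic human breast epithelial line with the genotype labelled WT, given 1 of 21 chemicals for 48 h at 0.025, 0.25, 2.5 or 25 µM. Per the labels, a dose had 4 biological replicates, each a well of a multiwell plate whose lysate became 1 library. RNA was measured by plexWell sequencing, in which the cDNA of each well gets its own barcode and each plate another.

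On plate 3153, 15 water controls stood beside mercury, lead, copper, cadmium and arsenic. On plate 3206, 15 DMSO controls stood beside MPB, PPB, BPA, BPS and BPF. Plate 3240 held PFDA, PFNA, PFOS and phenanthrene with 12 DMSO controls, and PFOA with 4 water controls. On plate 3284, 15 DMSO controls stood beside thiram, PCB153, PCB187, DCB_14 and DCP_25. DDE was alone on a plate of 24 libraries, with 8 controls that are labelled water while DDE is labelled DMSO, so solvent and chemical cannot be told apart there. The chemicals are named as in the labels. Every control had the same cells and time and no chemical. In all, 401 libraries were used, 332 dosed and 69 control. Cadmium at 25 µM had 2 libraries, numbered 1 and 2. A library labelled as its number 4 carried the barcode of plate 3284 and was left out, and a library 3 was not analysed here. MPB and PPB at 0.025 µM had 3 each.

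The aryl hydrocarbon receptor is a transcription factor that waits in the cytosol with the chaperone HSP90 and enters the nucleus when it binds a flat aromatic ligand such as a dioxin or a polycyclic aromatic hydrocarbon. There it pairs with ARNT and binds sites with the core GCGTG. CYP1A1 and CYP1B1 encode cytochrome P450 enzymes that oxidise such ligands and also estrogens, which is why they are studied in breast cells. AHRR encodes a repressor that competes with the receptor for ARNT, and TIPARP encodes an ADP-ribosyltransferase that dampens the receptor, so both act as feedback.

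The stretches of 250 bases before the gene start are shown for a strongly inducible target (CYP1A1), a feedback target (TIPARP, first of its 3 listed starts) and the partner ARNT, because the results turn on how differently these genes moved. They are from RefSeq on GRCh38.p14, at chr15:74725529-74725778 on the minus strand for CYP1A1, chr3:156674340-156674589 on the plus strand for TIPARP and chr1:150876600-150876849 on the minus strand for ARNT. Capitals mark GCGTG on either strand (CACGC where it lies on the other strand) and TATAAA on the printed strand.

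CYP1A1: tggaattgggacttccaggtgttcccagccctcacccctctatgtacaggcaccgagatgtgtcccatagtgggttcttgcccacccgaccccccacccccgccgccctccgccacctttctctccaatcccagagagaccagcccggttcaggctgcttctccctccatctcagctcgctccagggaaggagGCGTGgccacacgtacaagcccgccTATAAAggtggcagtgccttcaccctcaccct

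TIPARP: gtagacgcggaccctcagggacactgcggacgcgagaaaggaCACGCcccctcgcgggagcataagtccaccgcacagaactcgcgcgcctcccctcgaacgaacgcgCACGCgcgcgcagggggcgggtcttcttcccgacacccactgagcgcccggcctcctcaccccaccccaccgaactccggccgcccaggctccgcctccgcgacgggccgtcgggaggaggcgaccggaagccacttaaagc

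ARNT: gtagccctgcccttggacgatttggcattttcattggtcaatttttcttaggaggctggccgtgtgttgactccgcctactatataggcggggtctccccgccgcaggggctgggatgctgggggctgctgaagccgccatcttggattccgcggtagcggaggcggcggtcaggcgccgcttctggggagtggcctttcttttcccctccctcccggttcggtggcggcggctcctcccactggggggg

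CYP1A1 had 1 GCGTG, 57 bases before its start, and a TATAAA that began 32 bases before it. TIPARP had 2 GCGTG on the other strand, 208 and 142 bases before its first listed start, and no TATAAA. Before its other listed starts it had 0 GCGTG. ARNT had neither. Of 35116 RefSeq stretches of this length, 32.2% held GCGTG on either strand and 6.8% held TATAAA, so a match describes these letters and says nothing of binding. RefSeq promoters matched 5 of the 6 members. CYP1B1 was not among them.

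The genes lie, in GENCODE v29 on GRCh38, at chr7:16916359-17346152 (AHR, plus strand), chr1:150809705-150876768 (ARNT, minus), chr5:304176-438291 (AHRR, plus), chr15:74719542-74725610 (CYP1A1, minus), chr2:38066973-38109902 (CYP1B1, minus) and chr3:156673235-156706770 (TIPARP, plus). For TIPARP, CYP1A1 and ARNT these limits begin before the RefSeq starts used above. The printed stretch of TIPARP thus lies inside its GENCODE limits, and those of CYP1A1 and ARNT do so in part. The distances given above count from the RefSeq starts. The annotation used for counting is not given in the sources used here. In GENCODE v29, 2373 of the 8081 exon bases of AHR (29.4%) also belonged to the gene AC019117.2, which had 0 counts in 360 of the 377 analysed libraries that list it. Reads on shared exons may be left out of counts, so the level of AHR is uncertain. CYP1B1 shared 11.3% of its exon bases with its antisense gene CYP1B1-AS1, and strand handling is not given either. CYP1A1 and ARNT shared none.

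Libraries held a median of 13.85 M counts on plate 3153, 12.63 M on 3206, 11.94 M on 3240, 13.32 M on 3284 and 6.42 M on the DDE plate. Depth went with library number. The first 8 controls of plate 3153 had a median of 20.9 M and the last 7 a median of 3.17 M, and on plate 3284 these medians were 17.87 M and 3.18 M. Below, dosed libraries 1 and 2 with the first controls are called the low-numbered set, and libraries 3 and 4 with the last controls the high-numbered set. The labels do not say what the numbers stand for, and results are given within each set. Of the basal keratins, KRT5 had a median of 1247 CPM and KRT17 of 217 CPM over the 69 controls, with the epithelial KRT8 at 408 CPM and KRT18 at 516 CPM. Other basal and epithelial markers were lower, with medians of 24.1 CPM for KRT14, 4.24 for TP63, 13.9 for CDH1 and 22.2 for EPCAM. ESR1 was at 0 in 39 of 69 controls and the leukocyte gene PTPRC in 60 of 61, while CD14, a monocyte gene, had a median of 33.3 CPM.

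Without chemical, the 6 genes stood at very different levels. Values are CPM, that is, counts scaled to a common library total, with TMM library sizes. For levels between genes, CPM was divided by the kb of exon, and plate means of controls on the 4 larger plates are given. CYP1B1 was the highest at 29.1 to 46.3 CPM per kb, followed by TIPARP at 12.4 to 16.7 and ARNT at 6.73 to 7.9. CYP1A1 stood at 0.707 to 2.24, AHR at 0.541 to 0.779 and AHRR at 0.23 to 0.481, and the ranges of CYP1A1 and AHR overlapped. In the controls of the DDE plate the order differed, with CYP1A1 at 13.9 CPM per kb and ARNT at 5.36. The files of that plate list 15081 symbols, against 34718 on each of the others. Both members of the active pair, AHR and ARNT, were detected. ARNT was steady over all 401 libraries, from 18.6 to 72 CPM with a median of 46.5 CPM, whereas CYP1A1 ran from 0 to 114 CPM with a median of 3.65 CPM and was at 0 in 11 libraries. AHRR was at 0 in 24 libraries and AHR in 3.

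The controls themselves differed between the sets. On plate 3153 CYP1A1 ran from 0 to 0.643 CPM in the first 8 controls and from 1.57 to 9.19 CPM in the last 7, with no overlap. The fold change was 4.32 ± 0.58 on the log2 scale (SE), with an edgeR adjusted p of 6.6e-09. TIPARP ran from 41 to 54.6 CPM in the first and from 46.2 to 98.5 CPM in the last controls of that plate, a log2 difference of 0.78 ± 0.11 (adjusted p = 1.27e-07). CYP1B1 went the other way, from 177 to 211 CPM in the first and from 130 to 176 CPM in the last controls (log2 -0.32, adjusted p = 0.000928). AHR was 1.12 higher in the last (adjusted p = 0.0194). On plate 3284, CYP1A1 was 1.28 higher (adjusted p = 0.0285) and CYP1B1 0.49 lower (log2 -0.49, adjusted p = 1.13e-06) in the last controls, and on plate 3206 CYP1B1 was lower too (log2 -0.25, adjusted p = 0.015). In all, 7 of 24 member and plate pairs differed between first and last controls, where 8.33% of all genes did. At the lower doses of plate 3153, from 0.025 to 2.5 µM, the median of 30 low-numbered libraries was 0.598 CPM for CYP1A1 and that of 30 high-numbered ones 3.37 CPM. For TIPARP these medians were 51.45 and 75.8 CPM, and for CYP1B1 200.4 and 177.1 CPM, in the direction of the controls. AHR did not follow its controls there, at 4.628 CPM in the low-numbered and 4.211 CPM in the high-numbered libraries. What distinguishes the sets was not tested.

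At 25 µM, 7 of the 21 chemicals had a member that passed the test against the controls: arsenic, cadmium, copper, lead, thiram, PCB153 and DDE. Of 126 member and chemical pairs, 14 passed an edgeR adjusted p of 0.05, 8 higher and 6 lower, beside 4.85% of all gene and chemical pairs (2.61% higher, 2.24% lower). CYP1A1 passed for 5 chemicals (3 higher, 2 lower), CYP1B1 for 4 (1 higher, 3 lower), TIPARP for 4 (all higher) and AHR for 1 (lower). ARNT and AHRR passed for none with edgeR, with 2 and 3 pairs at an unadjusted p under 0.05. Several of these chemicals also moved many other genes: arsenic reached 41.4% of all genes, thiram 25.9%, cadmium 11%, copper 5.09% and lead 3.85%. For DDE 7.77% passed. For PCB153 it was 0.00469%, which is CYP1A1 alone among 21307 genes tested. The values used here hold no cell number or RNA amount, so fewer cells and less RNA per cell cannot be told apart.

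**Figure D1:**
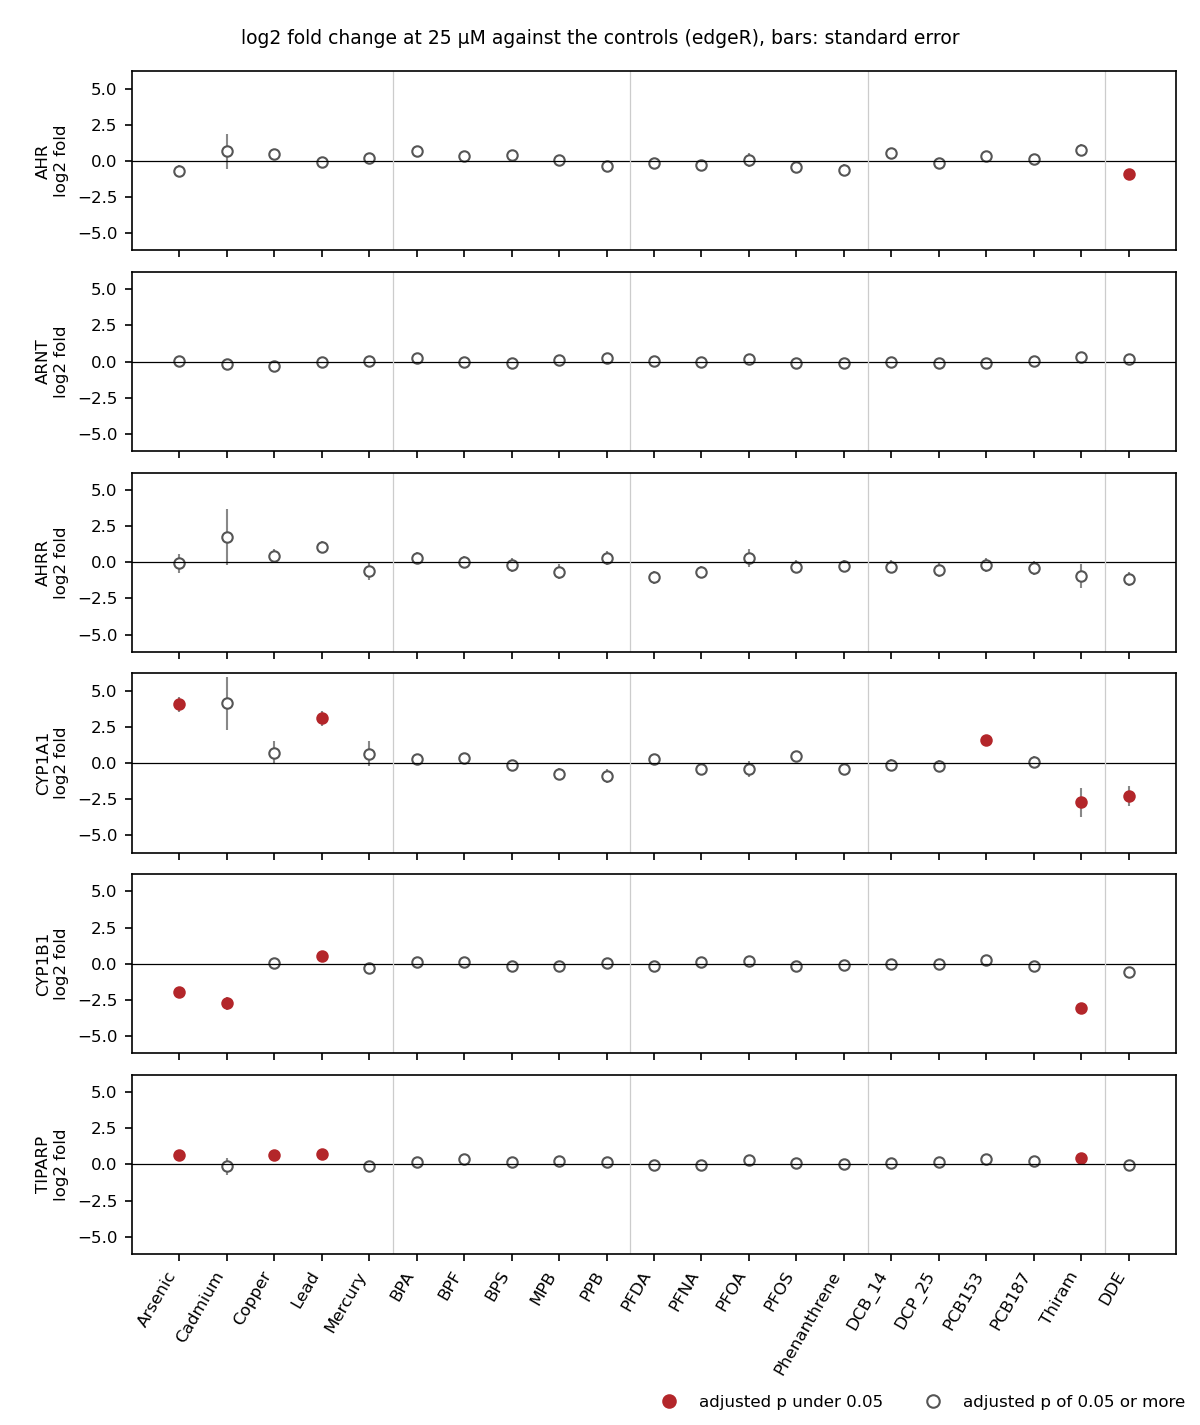
The log2 fold change of each member at 25 µM against the controls of its plate and solvent (vertical axes, edgeR) for 21 chemicals (horizontal axis), with bars for the standard error, filled points for an adjusted p under 0.05 and vertical lines between plates. CYP1A1 spans -2.72 to 4.14, CYP1B1 -3.05 to 0.55 and ARNT only -0.31 to 0.35.

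CYP1A1, the classical induced enzyme, rose with arsenic, lead and PCB153, and fell with thiram and DDE. With arsenic at 25 µM its 4 libraries read 9.43, 10.5, 21.5 and 25.7 CPM, a mean of 16.8 ± 8.05 (SD, n = 4), against 2.43 ± 3.2 in 15 controls. Every arsenic library lay above the highest control of 9.19 CPM. The log2 fold change was 4.08 ± 0.52 (SE, edgeR adjusted p = 3.93e-11). It held within both sets, at 5.24 (adjusted p = 1.2e-13) in the low-numbered and 2.26 (adjusted p = 1.84e-06) in the high-numbered one. The rise came at the top dose: the mean was 0.91 CPM at 0.025 µM, 3.41 CPM at 0.25 µM and 1.11 CPM at 2.5 µM, none of which passed.

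**Figure D2:**
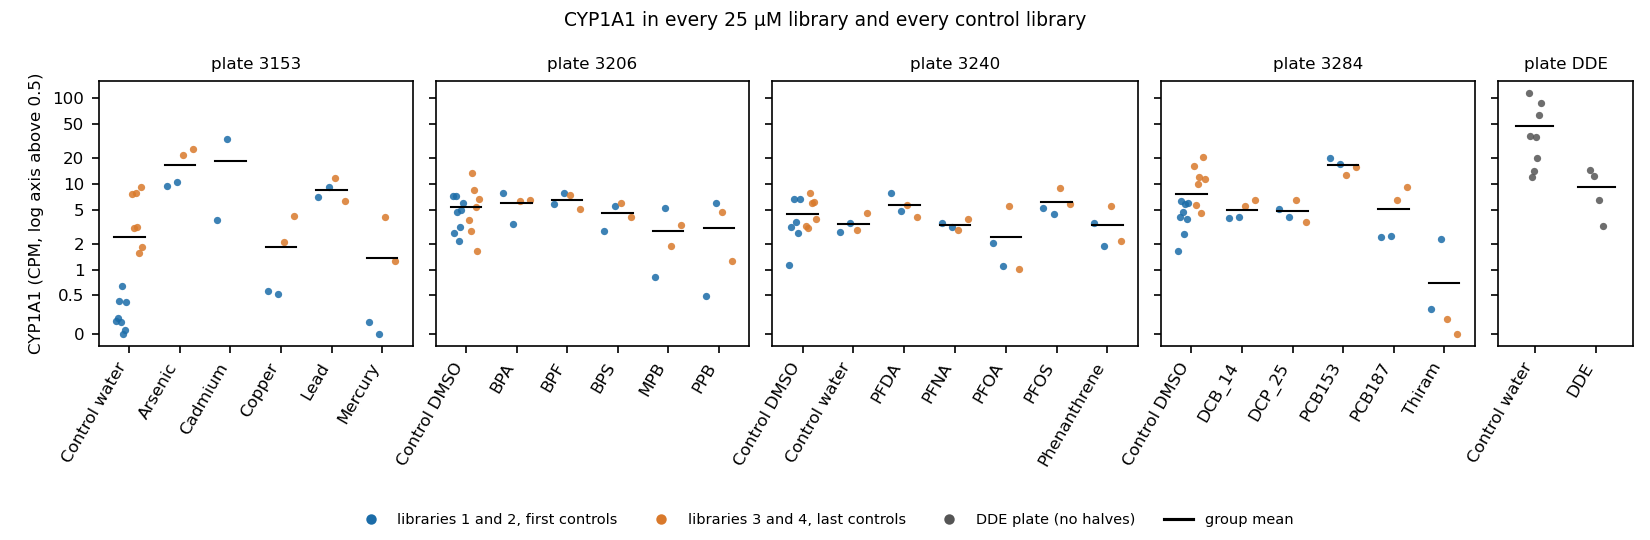
CYP1A1 in CPM (vertical axis) in each 25 µM library and each control (points, 5 plates), with colours for the low-numbered and high-numbered libraries and lines for group means. Arsenic libraries stand above all 15 controls of their plate, while PCB153 libraries stand above the first controls but within the range of the last.

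Lead gave CYP1A1 values of 7.04, 9.25, 11.7 and 6.32 CPM, a mean of 8.59 ± 2.45 (SD, n = 4). The low-numbered libraries lay far above the first controls. Of the high-numbered pair, 1 library lay above the last controls and the other among them. The fold change was 3.09 ± 0.54 (log2, adjusted p = 2.55e-05) against all controls. Within the low-numbered set it was 4.89 (adjusted p = 9.11e-14) and within the high-numbered set 0.81 (adjusted p = 0.429), which did not pass. DESeq2 gave 1.81 (adjusted p = 0.247). Against the last controls alone the value was 0.79 (adjusted p = 0.597).

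PCB153, a polychlorinated biphenyl, gave CYP1A1 values of 20.15, 17.2, 12.8 and 15.6 CPM, a mean of 16.4 ± 3.06 (SD, n = 4), against 7.69 ± 5.33 in 15 DMSO controls that ran from 1.67 to 20.8 CPM. All 4 lay within the range of the controls, but the low-numbered pair lay well above the first controls, which reached 6.24 CPM. Its log2 fold change was 1.58 ± 0.30 (edgeR adjusted p = 0.0112). Within the low-numbered set it was 2.04 (adjusted p = 1.89e-05), and within the high-numbered set 0.38 (adjusted p = 1). With DESeq2 it was 1.09 (adjusted p = 1), and it also did not pass without library 1 (adjusted p = 0.279) or library 2 (adjusted p = 0.152), where leaving out a number here and below removes it from every dosed group of the plate. The related PCB187 gave 0.09 ± 0.38, from libraries at 2.41, 2.46, 6.49 and 9.08 CPM.

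Cadmium had the highest fitted rise of CYP1A1, 4.14 ± 1.83 (log2), from 2 libraries at 3.77 and 33.6 CPM that rest on 3 and 24 reads. It did not pass (adjusted p = 0.155), and the libraries lay far apart. Within the low-numbered set alone, to which both belong, it passed at 6.07 (adjusted p = 0.000134), and with DESeq2 it passed at 3.16 (adjusted p = 0.0347). Phenanthrene, a polycyclic aromatic hydrocarbon, had libraries at 3.5, 1.91, 5.57 and 2.17 CPM and a log2 fold change of -0.45 ± 0.39 (adjusted p = 0.974). These libraries lay among the DMSO controls of 1.15 to 7.89 CPM.

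Thiram, a dithiocarbamate fungicide, gave CYP1A1 values of 0.326, 2.28, 0.197 and 0 CPM, from 2, 13, 1 and 0 reads. Of these, 3 lay below the lowest of the 15 controls. On the log2 scale the change was -2.72 ± 1.02 (adjusted p = 0.0371), a fit to very few reads. Within the low-numbered set it was -1.84 (adjusted p = 0.283) and within the high-numbered set -6.24 (adjusted p = 0.0107). Without library 1, 3 or 4 the adjusted p was 0.111, 0.134 or 0.0573. DDE gave 14.6, 12.3, 6.44 and 3.19 CPM against 8 controls from 11.9 to 114 CPM, so 2 of the 4 lay below all controls. The fitted log2 change was -2.28 ± 0.68 (adjusted p = 0.0429), and leaving out the library of rank 1, 2 or 3 in each dose gave adjusted p values of 0.0521, 0.142 and 0.172. At 0.025 µM of DDE, the libraries other than number 16 already lay below all controls, at 3.34 to 10.4 CPM. Over the DDE doses CYP1A1 had no called trend (-0.30 ± 0.25 per dose step, log2).

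CYP1B1, the main CYP1 enzyme of these cells by level, fell sharply with arsenic, cadmium and thiram and rose with lead. In arsenic its libraries read 53.8, 53, 39.9 and 38.8 CPM, a mean of 46.4 ± 8.13 (SD, n = 4), against 175 ± 25.6 in controls. All 4 lay under the lowest control of 130 CPM. The log2 fold change was -1.94 ± 0.16 (adjusted p = 6.36e-19), and within the sets it was -1.82 and -1.86, both of which passed. The 2 CYP1 genes thus moved in opposite directions with arsenic.

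**Figure D3:**
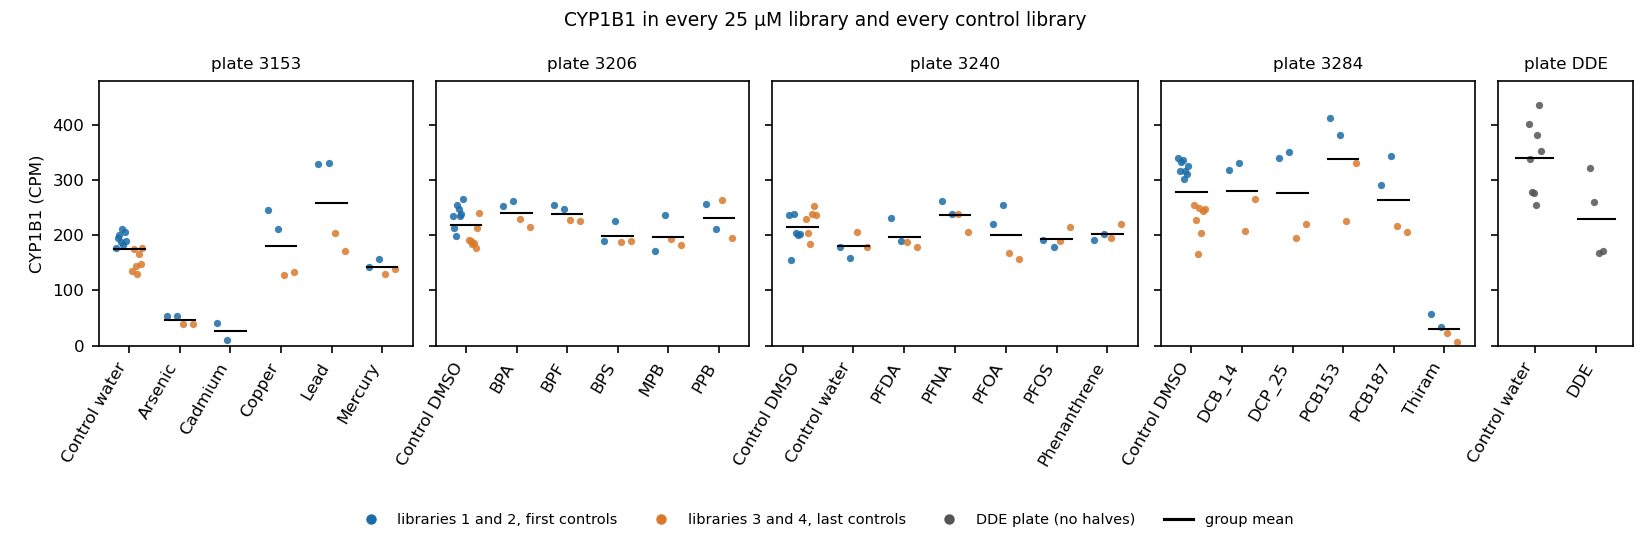
CYP1B1 in CPM (vertical axis) in each 25 µM library and each control (points, 5 plates), with colours for the low-numbered and high-numbered libraries and lines for group means. The arsenic, cadmium and thiram libraries, from 7.04 to 57.6 CPM, stand below every control of their plates.

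With thiram CYP1B1 had its largest fitted fall of the 21 chemicals. The libraries read 57.6, 33.9, 23.6 and 7.04 CPM, against 278 ± 54.2 (SD) in 15 controls. None overlapped the controls, which began at 166 CPM. Its log2 fold change was -3.05 ± 0.25 (adjusted p = 8.39e-20), with -2.82 and -3.65 within the sets. Both 25 µM cadmium libraries, at 41.4 and 9.8 CPM, also lay below all controls, and the fold change was -2.75 ± 0.45 (adjusted p = 1.49e-06). The median over all genes was -1.42 for cadmium in this fit. With DESeq2 that median was 0.07 and CYP1B1 stood at -2.59. Including a library labelled cadmium 25 µM that carried the barcode of plate 3284 gave -0.60 (adjusted p = 0.147). On the other larger plates its well barcode marked a control. It held 1.28 M counts, with CYP1B1 at 252 CPM of its raw total. The controls of plate 3284 ran from 166 to 340 CPM. Whether it received cadmium was not tested.

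Lead raised CYP1B1 modestly, with libraries at 328, 332, 204 and 172 CPM. The low-numbered pair lay above all controls and the other pair within their range. On the log2 scale the change was 0.55 ± 0.13 (adjusted p = 0.00283). It was 0.76 (adjusted p = 5.41e-12) within the low-numbered set and 0.30 (adjusted p = 0.175) within the high-numbered set, and it did not pass without library 1 (adjusted p = 0.107) or 2 (adjusted p = 0.126). PCB153, which passed for CYP1A1, gave CYP1B1 values of 413, 381, 226 and 331 CPM and 0.24 ± 0.15 (adjusted p = 0.963). DDE gave -0.56 ± 0.27 (adjusted p = 0.168).

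The ratio of CYP1A1 to CYP1B1 reads within a library needs no scaling between libraries. In arsenic log2 of this ratio, with 0.5 added to each count, was -1.58 ± 0.98 (SD, n = 4), against -7.76 ± 2.82 in the 15 controls. All 4 arsenic libraries lay above every control, and a two-sided exact permutation test gave p = 0.000258, the smallest this design allows (adjusted p = 0.00542 over 21 chemicals). It was the only chemical to pass that adjustment in the full comparison. Cadmium reached the smallest p its 2 libraries allow (exact p = 0.00735, adjusted 0.0772), and DDE was lower than its controls (exact p = 0.0141, adjusted 0.099). Within the low-numbered set, arsenic (7.58), cadmium (9.22), lead (4.65) and PCB153 (1.89) each had both libraries above every control and reached the smallest exact p possible, 0.0222 (adjusted 0.111). Within the high-numbered set arsenic, at 4.45, was above every control with the smallest exact p there, 0.0278 (adjusted 0.528), while lead stood at 0.76 (exact p = 0.417), PCB153 at 0.17 (exact p = 0.833) and cadmium had no library.

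TIPARP, the feedback ADP-ribosyltransferase, rose with arsenic, copper, lead and thiram, each by under 1 on the log2 scale. The arsenic libraries read 79.7, 84.7, 110 and 90.5 CPM against 62.5 ± 20.6 in controls, and 1 of 4 lay above all controls (log2 0.66 ± 0.20, adjusted p = 0.00395). Copper gave 84.5, 92.4, 92.2 and 84.4 CPM (0.62 ± 0.19, adjusted p = 0.0345), and lead gave 81.1, 97.8, 94.8 and 96.7 CPM (0.69 ± 0.19, adjusted p = 0.0178). None of the copper or lead libraries passed the highest control, so these groups overlapped.

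**Figure D4:**
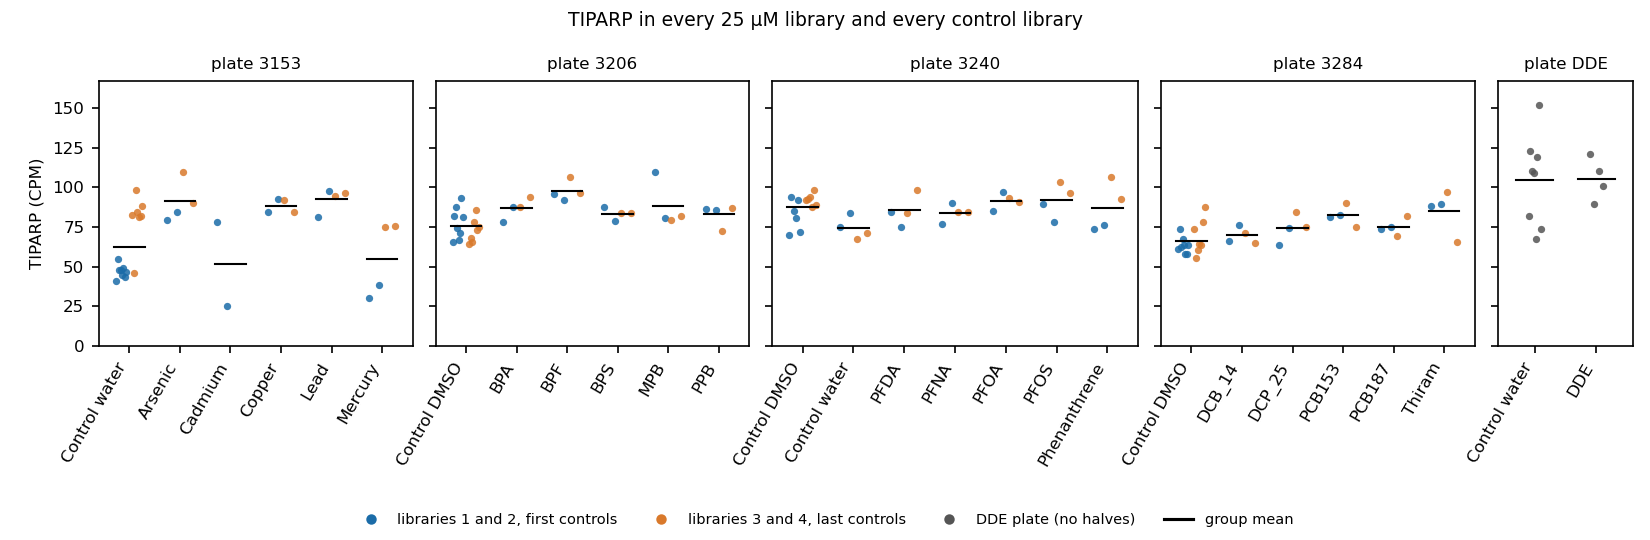
TIPARP in CPM (vertical axis) in each 25 µM library and each control (points, 5 plates), with colours for the low-numbered and high-numbered libraries and lines for group means. On plate 3153 the low-numbered controls reach only 54.6 CPM while the last controls reach 98.5 CPM, and copper and lead libraries lie from 81.1 to 97.8 CPM.

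Within sets, the rises of TIPARP with arsenic, copper and lead passed in the low-numbered libraries only. There it was 0.84 for arsenic (adjusted p = 1.8e-07), 0.91 for copper (adjusted p = 4.96e-10) and 0.92 for lead (adjusted p = 1.16e-09). In the high-numbered set these were 0.41 (adjusted p = 0.0554), 0.16 (adjusted p = 0.826) and 0.26 (adjusted p = 0.533). The difference between the sets was not tested. Copper and lead also missed the threshold with DESeq2 (adjusted p = 0.204 and 0.131). Without library 1, 2 or 3 copper had an adjusted p of 0.0534, 0.132 or 0.0879, and without library 2, 3 or 4 lead had 0.0806, 0.06 or 0.0553. Thiram gave 88.2, 89.8, 96.9 and 65.8 CPM against 66.1 ± 8.74, with 3 of 4 above all controls (0.44 ± 0.14, adjusted p = 0.012), and 0.47 and 0.33 within the sets, neither of which passed. It also did not pass without library 1, 2 or 3 (adjusted p = 0.0558, 0.0515 and 0.12). BPF gave 95.6, 92.1, 107 and 96.6 CPM, 3 of 4 above all 15 controls, at 0.37 ± 0.09 (adjusted p = 0.181).

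The receptor gene AHR passed the test for 1 chemical, DDE, where it fell. Its libraries at 25 µM read 9.51, 4.13, 6.11 and 6.95 CPM against 12.4 ± 2.84 in 8 controls, and 2 of 4 lay below all controls. The fitted log2 change was -0.93 ± 0.29 (adjusted p = 0.0483), and leaving out the library of rank 2, 3 or 4 in each dose gave adjusted p values of 0.189, 0.186 and 0.0661. AHR stood below the controls at every DDE dose, at -0.62, -0.81 and -1.28 for 0.025, 0.25 and 2.5 µM. Its trend over the DDE doses was not called (-0.14 ± 0.11 per dose step, log2). On that plate solvent and chemical cannot be told apart. For the other 20 chemicals AHR did not pass, at log2 fold changes from -0.70 with arsenic (adjusted p = 0.148) to 0.74 with thiram (adjusted p = 0.209). ARNT, the partner shared with hypoxia factors, came nearest with copper, at -0.31 ± 0.12 (adjusted p = 0.129). AHRR, the repressor, stood at 1.07 ± 0.43 with lead (adjusted p = 0.175), from libraries at 3.57, 1.39, 2.92 and 1.54 CPM. These lay within the controls, which ran from 0 to 5.5 CPM.

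At 2.5 µM, 3 of 126 pairs passed, beside 0.412% of all pairs, and lead gave 2 of them. Its CYP1A1 libraries read 3.77, 4.94, 5.22 and 9.08 CPM, all within the range of controls (log2 2.48 ± 0.61, adjusted p = 0.0216), and the value against the last controls alone was 0.17 (adjusted p = 1). CYP1B1 in lead read 292, 313, 194 and 192 CPM, with 2 of 4 above all controls (0.48 ± 0.13, adjusted p = 0.046). Without library 2, 3 or 4 CYP1A1 had an adjusted p of 0.0513, 0.062 or 0.319, and without library 1 or 2 CYP1B1 had 0.304 or 0.45. The other pair was AHR in DDE, at 2.96, 2.96, 4.72 and 9.34 CPM with 3 of 4 below all controls (-1.28 ± 0.30, adjusted p = 0.0487), and it did not pass without the library of rank 1, 2 or 3 (0.2, 0.285 and 0.27). At 0.25 and 0.025 µM none passed with edgeR, where 0.0748% and 0.0104% of all pairs did, with 7 pairs at an unadjusted p under 0.05 at each dose. DESeq2 called 1 pair at 0.25 µM and 0 at 0.025 µM.

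**Figure D5:**
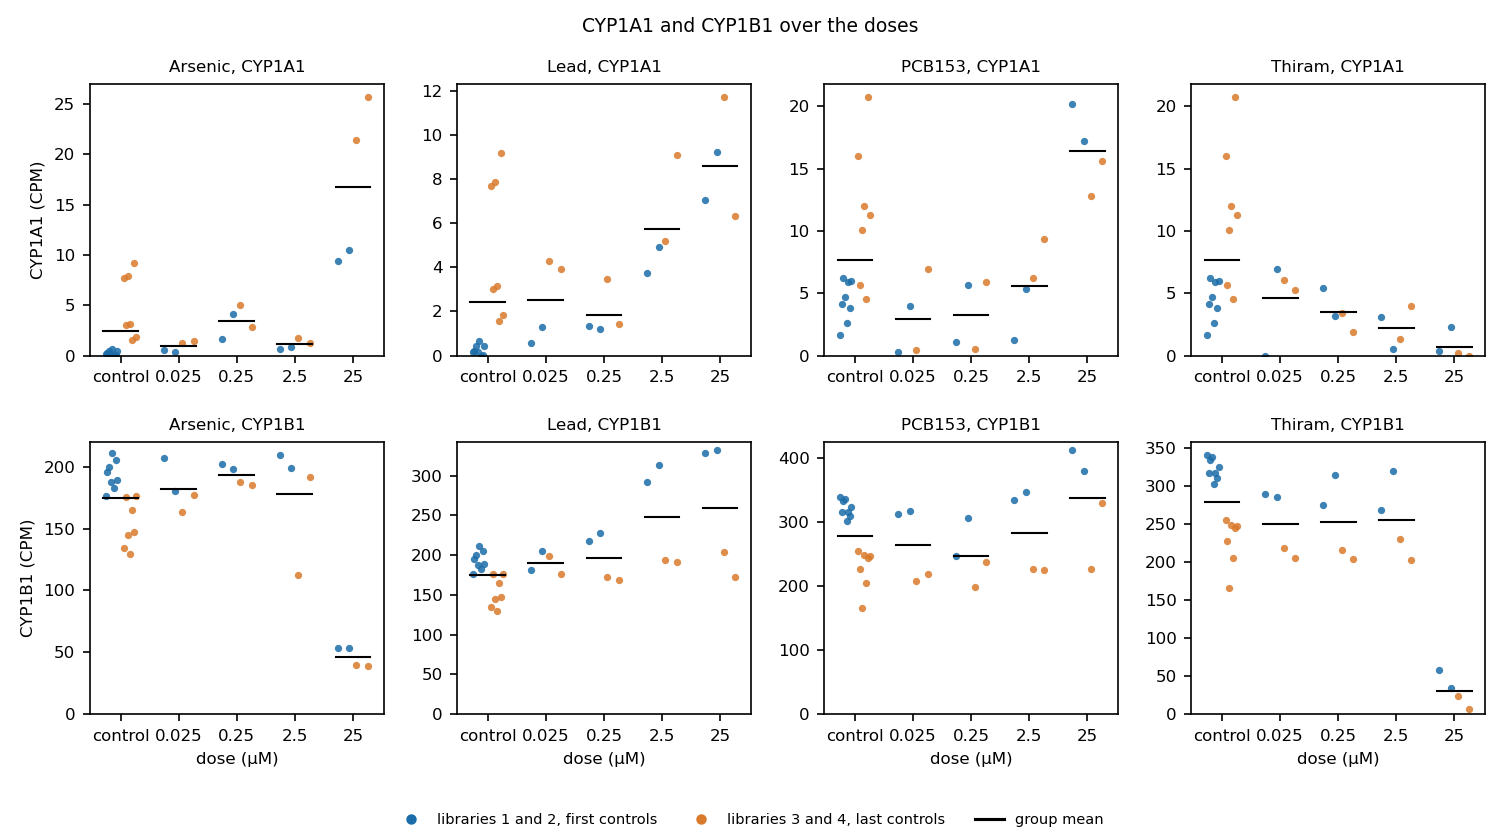
CYP1A1 (top) and CYP1B1 (bottom) in CPM (vertical axes) over controls and the 4 doses in µM (horizontal axes) for arsenic, lead, PCB153 and thiram, with points for libraries, colours for the low-numbered and high-numbered sets and lines for means. CYP1B1 is low in the 25 µM libraries of arsenic and thiram, and the means of both genes with lead are highest at 2.5 and 25 µM.

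Across the 4 doses alone, without controls, 6 of 126 pairs had a trend, beside 3.12% of all pairs. CYP1A1 rose per dose step by 1.08 ± 0.26 with arsenic (adjusted p = 0.000486), by 0.80 ± 0.15 with PCB153 (adjusted p = 0.0059) and by 0.68 ± 0.18 with lead (adjusted p = 0.0442), on the log2 scale. CYP1B1 fell with arsenic (-0.60 ± 0.06, adjusted p = 9.02e-16), cadmium (-0.86 ± 0.14, adjusted p = 1.64e-06) and thiram (-0.85 ± 0.08, adjusted p = 9.96e-15). For PCB153 CYP1A1 was again the only gene of 21307 to pass. Its means were 2.93, 3.28, 5.55 and 16.4 CPM from the lowest to the highest dose. A fit blocked on library number called 12 pairs, these 6 among them, with CYP1A1 at 0.82 for PCB153 (adjusted p = 0.000252) and 0.72 for lead (adjusted p = 5.19e-07). The replicate block added CYP1B1 with lead (0.16, adjusted p = 0.000823) and mercury (-0.17, adjusted p = 0.00398), TIPARP with lead (0.22, adjusted p = 7.18e-05), copper (0.17, adjusted p = 0.00363) and arsenic (0.17, adjusted p = 0.0011), and CYP1A1 with cadmium (1.62, adjusted p = 0.00657). Of these chemicals, the numbers paired the libraries of lead, mercury and copper. DESeq2 did not call the CYP1A1 trend for PCB153 (adjusted p = 0.562) or for lead (adjusted p = 0.467). Leaving out a library number ended the trend for lead each time (adjusted p from 0.103 to 0.303) and for PCB153 with number 1, 2 or 3 (0.766, 0.0556 and 0.18).

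Compared with the mean of the other chemicals of its plate at 25 µM, 15 of 120 pairs differed, beside 5.6% of all pairs. PCB153 stood 2.32 ± 0.35 above its plate mates in CYP1A1 (log2, adjusted p = 2.66e-06) and 1.05 above them in CYP1B1 (adjusted p = 5.52e-07). Both of these means of the others include thiram, in which both genes fell. Arsenic was 1.92 above in CYP1A1 (adjusted p = 0.000634) and lower in CYP1B1 (-1.32, adjusted p = 8.05e-06). Lead was 1.79 above in CYP1B1 (adjusted p = 1.35e-15), while copper and mercury were lower in CYP1A1, at -2.28 and -2.35. The mean of the others on this plate includes arsenic and cadmium. Thiram was lower in both genes, at -3.06 each. The copper value for CYP1A1 did not pass without number 1, 2 or 3 (adjusted p = 0.084, 0.968 and 0.376), nor the mercury value without 2 or 4 (0.995 and 0.0916), nor arsenic in CYP1B1 without 1 (0.185), nor thiram in CYP1A1 without 3 (0.0643). With DESeq2 arsenic did not pass in CYP1A1 (adjusted p = 0.0738). None of AHR, ARNT, AHRR and TIPARP differed in this edgeR comparison, with 3, 2, 0 and 2 pairs at an unadjusted p under 0.05. Between 4 water and 12 DMSO controls, 0 of 6 members passed with edgeR (2 at an unadjusted p under 0.05) and 0 with DESeq2. Beside 4.08% of all genes with edgeR, 0 of 6 is near the general share. All 6 stood lower in water, from -0.07 for ARNT to -1.01 for AHRR (log2).

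Other genes of the pathway were described from 4 lists. These were chosen with earlier results of these data known, so their counts here and below are descriptions and not independent support. Among other known targets of the receptor, 29 of 281 gene and chemical pairs rose and 11 fell at 25 µM, beside 2.61% and 2.24% of all pairs. Arsenic, where 41.4% of all genes passed, cadmium, copper, lead and thiram held most of them. NQO1, a quinone reductase shared with the oxidative stress factor NRF2, rose with arsenic (log2 1.24), cadmium (1.35), copper (1.23), lead (1.17), mercury (0.71), thiram (0.36) and BPF (0.34). ALDH3A1, an aldehyde dehydrogenase also induced by the receptor, fell with arsenic (-2.94), cadmium (-1.92), thiram (-1.74), MPB (-0.92) and DDE (-0.92) but rose with mercury (0.94). STC2, a secreted stanniocalcin, rose with arsenic (2.53), cadmium (1.59), copper (0.86) and thiram (2.03). SERPINB2, a protease inhibitor, rose with arsenic (5.55), cadmium (6.98), copper (6.77), lead (3.31) and thiram (7.04), against control means of 0.866 CPM on plate 3153 and 0.556 CPM on plate 3284.

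Of the NRF2 targets listed for comparison, 29 of 126 pairs rose and the others did not pass, including rises of 6 of 6 genes with each of arsenic, copper, lead and thiram, where 23.2%, 2.88%, 2.15% and 13.7% of all genes rose. Their median log2 fold change was 3.42 with arsenic, where the median over all genes was 0.00, and 0.02 with PCB153. HMOX1, a heme oxygenase, rose by 8.82 with arsenic and 9.99 with cadmium. Among genes of the receptor complex, 14 of 273 pairs rose and 9 fell, of which arsenic gave 6 and 4, and the shares over all pairs were 2.61% and 2.24%. The chaperone HSP90AB1 rose with arsenic (0.62), cadmium (0.39), thiram (0.70) and DDE (0.75), and HSP90AA1 rose with arsenic (0.36), cadmium (3.03) and thiram (0.75). HIF1A, a rival for ARNT, fell with arsenic (-0.73), thiram (-0.55) and DDE (-0.87). Of tryptophan enzymes, which make natural ligands, 1 of 67 pairs rose and 2 fell, beside 2.61% and 2.24% of all pairs, and KYNU fell with thiram (-1.21). With PCB153 no list gene passed in edgeR, and 2 targets, 1 complex gene and 1 NRF2 target had an unadjusted p under 0.05.

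Markers of epithelial cells and of other cell types moved with some of these groups. The summed leukocyte list (PTPRC and CD14, of which PTPRC was at 0 in nearly all controls) was 0.957 to 4.03 CPM with arsenic, 0 to 2.51 CPM with cadmium and 9.93 to 19.7 CPM with copper, against 20.2 to 78.9 CPM in the controls of plate 3153. With thiram it was 3.16 to 16.3 CPM against 18.7 to 58.4 CPM. The fibroblast list (COL1A1, COL1A2 and PDGFRB) summed to 2.63 to 7.39 CPM with arsenic and 0 to 19.6 CPM with cadmium, against 0 to 2.98 CPM. With DDE the fibroblast sum was 5.82 to 15.2 CPM against 9.85 to 20.1 CPM, and all of these overlapped controls. The basal list (KRT5, KRT14, KRT17 and TP63) summed to 652 to 1152 CPM with arsenic against 1506 to 2198 CPM in controls, and the luminal pair ESR1 and PGR to 3.11 to 7.1 CPM against 0 to 1.53 CPM. With copper the basal sum was 2136 to 4865 CPM, and with DDE 2993 to 5649 CPM against 5132 to 6896 CPM, both overlapping controls. The epithelial list (CDH1, EPCAM, KRT8 and KRT18) was below all controls of plate 3153 (859 to 1207 CPM) with arsenic, at 729 to 825 CPM, and with copper, at 747 to 812 CPM. Their part in the results was not tested.

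Over the 80 dosed groups of the 4 larger plates, members followed each other little. Pearson's r of group means, centred per plate, was -0.03 between CYP1A1 and CYP1B1 and 0.31 without the 25 µM groups of arsenic, cadmium and thiram. It was 0.25 between CYP1A1 and TIPARP, and 0.44 without those groups. The genes most like CYP1B1 among 18717 were NFKBIA (r = 0.96), PSMB8 (0.94) and B4GAT1 (0.94), which fell to 0.46, 0.51 and 0.45 without the 3 groups. For TIPARP they were CDK8 (0.68), TXNRD1 (0.67) and NPLOC4 (0.63), and TXNRD1, an NRF2 target, stood at 0.76 without the 3 groups. For CYP1A1 they included BST2 (0.64) and GPX8 (0.62), at 0.36 and 0.37 without the 3 groups, and AHR, ARNT and AHRR had none above 0.53. Groups of a plate share libraries' depth and preparation, so these are descriptions.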

How the data were processed

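Gene counts per library were deposited by the authors as whole numbers, made with STAR and featureCounts on GRCh38, per the submitters' processing notes; their versions are not stated there. Each plate was fitted on its own with edgeR 4.0.16 in R 4.3.3: TMM scaling, genes with enough counts kept by group (minimum count 10, minimum total 15), 1 mean per chemical and dose, quasi-likelihood tests against the controls of the same plate and solvent, and Benjamini-Hochberg adjustment over all genes. CPM used the same scaling. Totals ran from 1.43 to 25.77 M counts per library, and p-values measure the spread between wells. The CYP1 ratio had exact permutation tests. Alternatives were DESeq2 1.42.0, RLE scaling, no filter, libraries left out, numbered sets and a replicate block. The test was checked on simulated counts with the same spread for every gene and no difference between the numbered sets. That check does not cover differences between the sets. The 6 members and the lists were chosen with earlier results of these data known. Named genes were the members, up to 4 called genes with the smallest p of each list and chemical, and the 3 genes most like each member; not all are printed. Library numbers paired the samples (every same-number correlation over 0.1) for copper, lead, mercury and PFOA. One of those most like CYP1A1 is not reported here.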

Additional observations from a re-analysis of the deposited data

Results flagged for a closer look

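Of 150 member and group pairs checked, with 4 to 10 libraries each, 9 had a library that stood apart by Dixon's ratio. This is the gap to the nearest library over the group's range, and chance flags about 1 in 20 pairs. Members of a group share its libraries, so the pairs are not independent. Control groups of 12 or 15 libraries, cadmium at 25 µM and the lower doses of the 4 larger plates were not checked. On the DDE plate, AHR was at 6.61 CPM in control 13 (others 11.4 to 15.4). In library 16 at 0.025 µM, CYP1A1 was at 60 CPM (others 3.34 to 10.4) and TIPARP at 150 CPM (others 90.4 to 98.6). In library 3 at 25 µM, ARNT was at 46.2 CPM (others 38.8 to 39.8). With thiram at 25 µM, AHRR was at 7.49 CPM in library 3 (0 in the others), and CYP1A1 at 2.28 CPM in library 2 (others 0 to 0.326). At 25 µM of BPS, CYP1B1 was at 226 CPM in library 2 (others 187 to 190). TIPARP was at 110 CPM in library 1 of MPB (others 79.2 to 82.1) and at 72.4 CPM in library 3 of PPB (others 85.5 to 87.2).

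Members also differed between chemicals of a plate at 25 µM, as log2 differences from the mean of the others with edgeR adjusted p. For CYP1A1 these were 1.92 for arsenic (0.000634), -2.28 for copper (0.0328), -2.35 for mercury (0.0229), 2.32 for PCB153 (2.66e-06) and -3.06 for thiram (0.0101). For CYP1B1 on plate 3153 they were -1.32 for arsenic (8.05e-06), -2.33 for cadmium (0.000156), 1.14 for copper (2.1e-07), 1.79 for lead (1.35e-15) and 0.71 for mercury (0.00213). On plate 3284 they were 0.72 for DCB_14 (0.00311), 0.69 for DCP_25 (0.0056), 1.05 for PCB153 (5.52e-07), 0.60 for PCB187 (0.0234) and -3.06 for thiram (4.57e-20). Each mean of the others includes any chemical that moved the gene itself. With the library labelled cadmium but carrying the barcode of plate 3284 included, CYP1B1 stood at -0.18 for cadmium (0.976) and 0.17 for mercury (0.653). Without number 2 CYP1B1 also did not pass for cadmium (-1.59, 0.134), mercury (0.57, 0.0929), DCP_25 (0.63, 0.0771) and PCB187 (0.51, 0.154), nor for PCB187 without number 3 (0.55, 0.11) or 4 (0.63, 0.0645).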

How the results depend on the processing

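Of 430 alternative values for 46 single results, 342 kept their direction and call, 88 kept the direction but not the call, and 0 reversed. In all, 20 results were called under every alternative run, among them CYP1A1 and CYP1B1 with arsenic and CYP1B1 with thiram at 25 µM. The 7 differences between first and last controls are among these 20. They had only 2 alternatives each, RLE scaling and no filter. The 14 pairs called at 25 µM were 7 to 11 with a library number left out, 6 within the high-numbered set, and 9 against the last controls alone. The counts within that set and against the last controls keep the DDE pairs of the main fit, because the DDE plate had no numbered sets. At 2.5 µM, 3 became 0 to 4 with a number left out and 5 without the end-numbered DDE libraries. At 0.25 µM, 0 became 1 with DESeq2 and 3 without those DDE libraries. At 0.025 µM, 0 became 0 to 2 with a number left out, 1 against the first controls alone and 2 without those DDE libraries. The 6 trends became 13 with a term for the numbered sets and 12 with the replicate block, and the 15 differences from other chemicals 9 to 13 with a number left out; the replicate block gave 16. The ratio passed for 1 chemical, and for 0 within the low-numbered and 0 within the high-numbered set, where fewer libraries limit the exact p. The cause of the other changes was not tested. RLE scaling moved the all-gene median with arsenic from 0.00 to 0.14 and the share of called genes that were higher from 56.1% to 63%. Low counts limit AHR, AHRR and CYP1A1, and 2 libraries limit cadmium.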
